A study of Mus musculus with 18 samples.

Results

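The genes of cholesterol and fatty acid synthesis were followed in mouse pancreatic ductal adenocarcinoma (PDAC) lines grown from lung or liver metastases. The list held 32 names covering the mevalonate steps, the steps after squalene, the SREBP regulators with a sterol carrier, and the fatty acid enzymes. Of these, 30 had a row by symbol in the table of 16383 genes, and Hmgcs1 and Msmo1 had none. Sc4mol, an older symbol of Msmo1, is among the 30 and stands for that gene. All 30 passed the filter on low values, a CPM (reads scaled to the total of the library) of at least 1 in at least 4 of 18 libraries, which 12931 genes passed. The members divide into 6 genes of the mevalonate steps, 11 of the steps from squalene to cholesterol, 6 regulators and carriers, and 7 genes of fatty acid synthesis.

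Total RNA of each culture was made into a TruSeq library. The study knocked down Gstt1, a glutathione transferase, with a lentiviral hairpin (shRNA 1 or shRNA 2) and used a non-targeting (NT) hairpin as control. All cultures were kept in RPMI with serum, infected, selected with puromycin for 48 h and collected after a split. There were 10 knockdown libraries (6 with shRNA 1 and 4 with shRNA 2) and 8 NT libraries. Lung lines were 42-3 and 6-2, with 3 knockdown and 3 NT libraries, and liver lines were 42-2, G45-2, 6-3 and 13-2, with 7 knockdown and 5 NT libraries. A set is here an NT library with the knockdown libraries of its line. Lines 42-3 and 42-2 had 2 NT and 2 knockdown libraries each, which were divided into a first and a second set by the library code in the labels, whose meaning is not stated. This gives 3 lung and 5 liver sets. The genotype label reads SIRT6F/F/p48-Cre/p53F/+KrasL/+ for the first 42-3 set, SIRT6F/Fp48+/Tp53F/+KrasL/+ for the second 42-3 set and lines 6-2, 42-2, G45-2 and 6-3, and p48+/Tp53F/+KrasL/+ for line 13-2. The p48 promoter drives Cre in the pancreas, and the NT libraries carry the same genotype label as the knockdown libraries of their set. Nothing in the labels says that libraries of a line came from separate cultures or animals, so p-values measure the spread between these libraries and lines.

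Cells make cholesterol from acetyl-CoA through mevalonate, farnesyl diphosphate and squalene, and they make fatty acids from acetyl-CoA through malonyl-CoA. The transcription factors SREBP1 and SREBP2, made from Srebf1 and Srebf2, are held in the endoplasmic reticulum by Scap and the Insig proteins while sterols are plentiful. When sterols run low they are cut, enter the nucleus and bind sterol regulatory elements beside NF-Y sites (CCAAT boxes) in the promoters of most of these enzymes. Insig1 and Srebf2 are themselves targets of SREBP, and tumor cells are known to run both pathways for membrane growth.

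The promoters of 5 named genes are shown because these genes are regulators or enzymes described by library below and each has a single start in the RefSeq promoter table (build GRCm38.p6). Each window is the 250 bases before the start, 5′ to 3′ on the strand of the gene, and capitals mark CACNCCAC, CCAAT or CACGTG on either strand. The windows are chr17:12960726-12960975 on the minus strand for Acat2, chr5:4104698-4104947 on the minus strand for Cyp51, chr5:28071162-28071411 on the plus strand for Insig1, chr15:82147019-82147268 on the plus strand for Srebf2 and chr11:120824548-120824797 on the minus strand for Fasn.
Acat2: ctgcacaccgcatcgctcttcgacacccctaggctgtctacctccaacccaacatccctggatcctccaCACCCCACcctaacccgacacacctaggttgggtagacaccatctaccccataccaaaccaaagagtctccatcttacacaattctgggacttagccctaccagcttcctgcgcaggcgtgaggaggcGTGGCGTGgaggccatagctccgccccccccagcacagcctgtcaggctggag
Cyp51: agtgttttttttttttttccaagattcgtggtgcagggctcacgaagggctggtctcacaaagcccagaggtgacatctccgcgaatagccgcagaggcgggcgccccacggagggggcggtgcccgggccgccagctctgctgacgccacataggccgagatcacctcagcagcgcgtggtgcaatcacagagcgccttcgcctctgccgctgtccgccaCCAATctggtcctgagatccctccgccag
Insig1: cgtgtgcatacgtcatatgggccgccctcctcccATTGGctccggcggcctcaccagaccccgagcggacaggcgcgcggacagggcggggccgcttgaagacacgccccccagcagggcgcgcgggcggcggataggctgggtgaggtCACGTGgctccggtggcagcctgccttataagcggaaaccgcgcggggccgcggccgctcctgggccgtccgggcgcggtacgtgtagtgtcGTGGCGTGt
Srebf2: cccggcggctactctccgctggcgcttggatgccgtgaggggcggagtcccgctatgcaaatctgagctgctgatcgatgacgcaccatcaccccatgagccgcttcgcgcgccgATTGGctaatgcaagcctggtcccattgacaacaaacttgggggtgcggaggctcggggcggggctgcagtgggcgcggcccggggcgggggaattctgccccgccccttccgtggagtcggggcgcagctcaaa
Fasn: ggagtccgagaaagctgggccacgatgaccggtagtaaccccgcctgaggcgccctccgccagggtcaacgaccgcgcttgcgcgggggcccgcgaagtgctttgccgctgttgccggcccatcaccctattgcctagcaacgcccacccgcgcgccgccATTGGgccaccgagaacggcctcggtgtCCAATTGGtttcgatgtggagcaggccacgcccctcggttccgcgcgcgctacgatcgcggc
Of the 30 members, 24 had an entry in that table, and Fdps, Fdft1, Sqle, Stard4, Scd1 and Scd2 had no match. A CCAAT box, searched on both strands in every start window of a gene, was in 19 of the 24 (79.2%), against 37.5% of all 27025 genes with an entry. A GC box, GGGCGG, was in 20 of 24 (83.3%), against 35.4% of all genes. The E-box CACGTG was in 5 (20.8%), against 6.86%, and lies in the Insig1 window shown. The sterol element core TCACNCCAC was in 0 of the 24, against 1.22% of all genes, and the shorter CACNCCAC, which every longer match also contains, was in 2 (8.33%), against 6.05%. Those 2 are Acat2, with 2 matches, and Insig1, with a match 9 bases before the start. All members passed the filter on low values, whereas the 27025 genes were not limited to genes expressed in these lines, so the 2 groups are unlike. These counts describe the letters of the windows only.

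Library totals recovered from the CPM values were 8411436 to 25552912 reads, so that 3 reads correspond to 0.117 to 0.357 CPM. Gstt1 had a lowest of 0.0687, a median of 0.355 and a highest of 23.9 CPM in the 10 knockdown libraries, against 0.616, 31.5 and 52.5 CPM in the 8 NT libraries. It was lower in the knockdown in 8 of 8 sets, by a mean of -3.21 ± 1.85 on the log2(CPM + 1) scale (SD, n = 8 sets, exact two-sided sign-flip test p = 0.00781), and in 6 of 6 lines (exact p = 0.0313). Its level was 19.2 CPM with shRNA 1 in line 6-3 and 23.9 CPM with shRNA 1 in line G45-2, against 25.4 and 43.8 CPM in their NT libraries. In line 42-2 the NT libraries held 2.67 and 0.616 CPM.

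The knockdown and NT libraries of a set did not always look like the same line. Of 7 transcripts that mark a line (from the sex chromosomes, Cdkn2a and Cdkn2b), at least 2 were at 10 CPM or more in one library and lower by 10-fold or more in the other library of the set for 5 of 8 sets, and those 5 include all 3 lung sets. In these sets the knockdown and the identity of the cells cannot be told apart. The comparisons of lung with liver lines, in NT and in knockdown libraries, take line and site from the same labels. They share this limit, since which library of such a set is unlike its label, if any, is not known. Results of knockdown are given with and without these sets where a fit remains, and no lung set remains without them. Of the library codes, code CFa8 covers the first sets of 42-3 and 42-2 and line 6-2, code CFa13 covers the second 42-2 set, and code CFa11 covers the second 42-3 set, line G45-2 and the NT libraries of 6-3 and 13-2. The knockdown libraries of 6-3 and 13-2 carry code CFa12. The epithelial keratins Krt8, Krt18 and Krt19 were detected in all 18 libraries, while Epcam was at 0.0391 CPM in its lowest library and Cldn4 was at 0 in 2 libraries. Of 6 hepatocyte markers, 3 had a row, led by Apob at up to 662 CPM, and Nkx2-1, the lung epithelium marker with a row, was at 0 in 17 libraries.

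**Figure D1:**
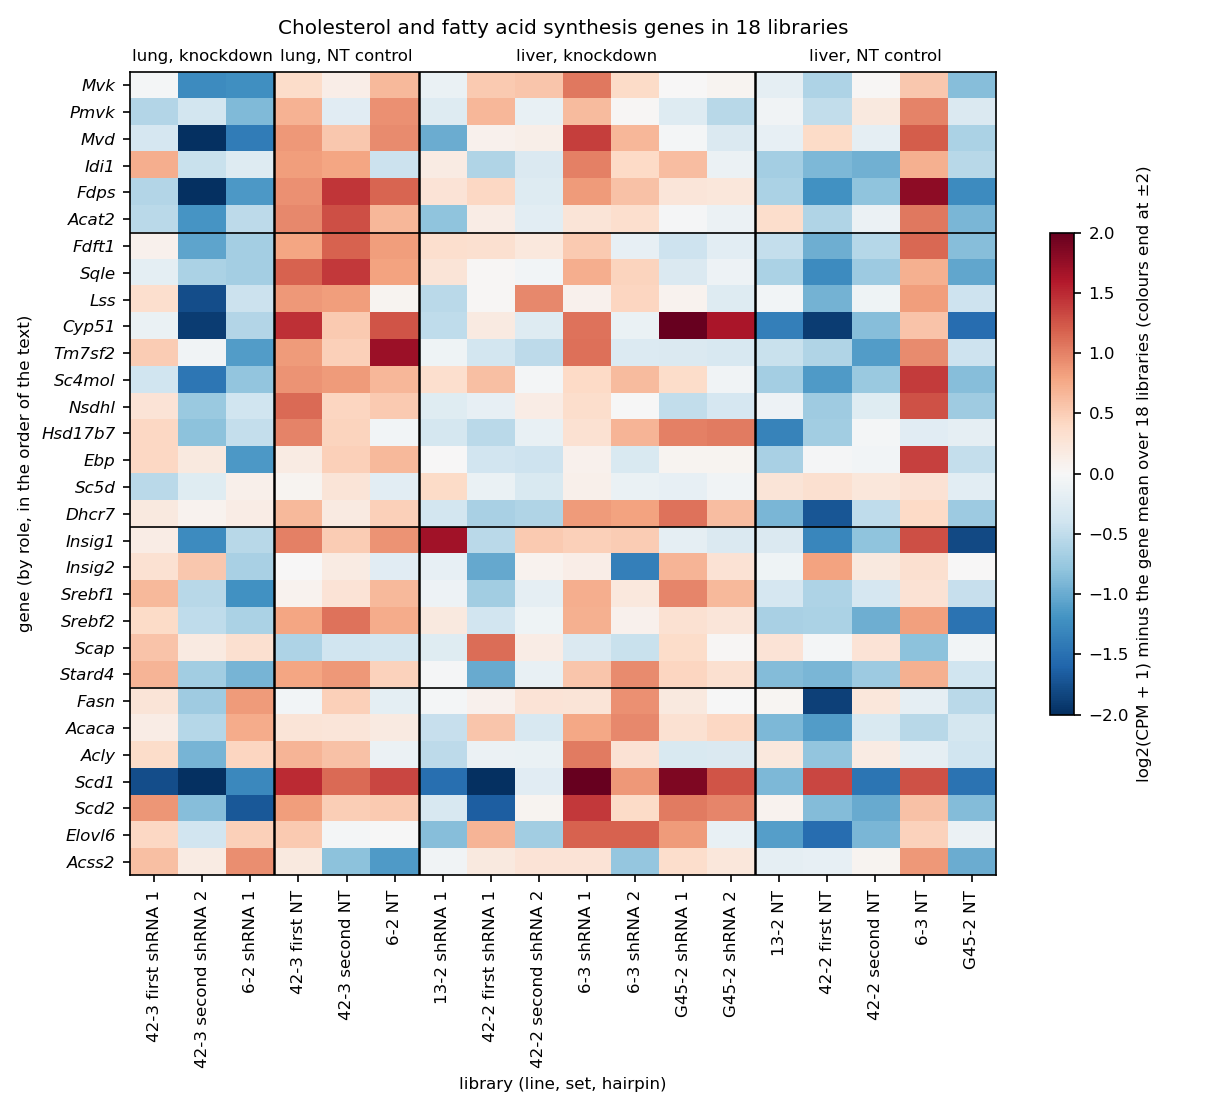
Levels of the 30 genes (rows, ordered by role) in 18 libraries (columns), as log2(CPM + 1) minus the gene's mean over the libraries, with red for higher and blue for lower and colours ending at ±2. Among NT columns the 3 lung libraries and the 6-3 library are mostly red, and among knockdown columns the second 42-3, 6-2 and 13-2 libraries have the fewest genes above their means (5, 8 and 9 of 30), while the first 42-3 library has 20.

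In the NT libraries, lung lines had higher levels of most sterol synthesis genes than liver lines, but no gene of the list passed the test. Differences were on log2(CPM + 1) of 6 line means (2 lung, 4 liver), tested with limma and Benjamini-Hochberg adjustment over all 12931 genes. Of the 30 members 0 were called, against 0.0309% of all genes (4 genes), the smallest adjusted p of a member being 0.258 for Cyp51. At an unadjusted p under 0.05 there were 7 members, all higher in lung, against 6.43% of all genes higher and 13.1% in either direction at that limit. The count test edgeR on the recovered reads also called 0 members, against 0.00773% of all genes, with 3 at the unadjusted limit, against 13.6%. The lung mean was higher for 26 members and lower for 4, where 46% of all genes were higher and 54% lower, and the members' median difference was 0.77, against -0.05 over all genes. Line 6-3, described below, stands apart from the other liver lines.

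Of the mevalonate steps, 6 of 6 were higher in lung lines with a median of 0.67, and 0 passed. Fdps (ENSMUSG00000059743) makes farnesyl diphosphate, the branch point between sterols and protein prenylation. It had 89.8, 129 and 107 CPM in the lung NT libraries (42-3 first, 42-3 second and 6-2), against 19.8 and 26.7 (42-2), 19.1 (G45-2), 165 (6-3) and 30.2 CPM (13-2) in the liver NT libraries. The 3 lung libraries lay above 4 liver libraries and below 6-3, and the difference was 1.45 ± 0.80 (SE, limma adjusted p = 0.472). Acat2 (ENSMUSG00000023832), the cytosolic thiolase that joins acetyl-CoA units at the start of the pathway, had 105, 131 and 85.5 CPM in lung and 34.9 and 49.0 (42-2), 27.8 (G45-2), 112 (6-3) and 68.1 CPM (13-2) in liver NT libraries. The groups overlapped through 6-3, with a difference of 0.87 ± 0.52 (SE, adjusted p = 0.503). Acat2 has a close mouse copy, Acat3, beside it, and the labels do not say how reads shared by the pair were counted. The other 4 members (Mvk, Pmvk, Mvd and Idi1) differed by 0.45 to 0.70.

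Of the 11 genes from squalene to cholesterol, 10 were higher in lung lines with a median of 1.04, and 0 passed. Sqle (ENSMUSG00000022351), the squalene epoxidase that is a rate-limiting enzyme of this arm, had 417, 490.2 and 321 CPM in lung NT libraries, against 75.8 and 111 (42-2), 88.4 (G45-2), 300.4 (6-3) and 118 CPM (13-2) in liver NT libraries. Every lung library was above every liver library, the nearest being 6-2 and 6-3. The line means were 454 (42-3) and 321 CPM (6-2) in lung, against 93.2 (42-2), 88.4 (G45-2), 300.4 (6-3) and 118 CPM (13-2) in liver, a difference of 1.54 ± 0.50 (SE, limma adjusted p = 0.297).

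Cyp51 (ENSMUSG00000001467), the lanosterol demethylase, had 413, 213 and 356 CPM in lung and 39.2 and 82.5 (42-2), 50.9 (G45-2), 221 (6-3) and 56.8 CPM (13-2) in liver NT libraries. The second 42-3 library was just under 6-3, while both lung line means (313 and 356 CPM) were above all liver line means, and the difference was 2.05 ± 0.58 (SE, adjusted p = 0.258). Fdft1, squalene synthase, differed by 1.15, Tm7sf2, a sterol reductase, by 1.39, and Dhcr7, which makes the last reduction to cholesterol, by 1.04. The exception was Sc5d, a sterol desaturase, at -0.19.

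Among regulators and carriers, 4 of 6 were higher in lung lines, with a median of 0.82. Srebf2 (ENSMUSG00000022463) had 415, 511 and 403 CPM in lung NT libraries, against 155 and 122 (42-2), 85.8 (G45-2), 427 (6-3) and 152 CPM (13-2) in liver NT libraries. The 6-3 library lay among the lung values and the other 4 liver libraries were below all of them, with a difference of 1.37 ± 0.57 (SE, limma adjusted p = 0.373). Insig1 (ENSMUSG00000045294), which retains the Scap complex when sterols are high, had 119.7, 84.4 and 111 CPM in lung and 23.3 and 33.5 (42-2), 16.2 (G45-2), 146 (6-3) and 48.0 CPM (13-2) in liver NT libraries, a difference of 1.29 ± 0.76 (adjusted p = 0.494) with 6-3 above all lung libraries.

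Srebf1 (ENSMUSG00000020538), whose product acts mainly on fatty acid genes, had 205, 235 and 308 CPM in lung and 126 and 155 (42-2), 141 (G45-2), 239 (6-3) and 154 CPM (13-2) in liver NT libraries. The groups overlapped at 6-3, and the difference was 0.66 ± 0.29 (SE, limma adjusted p = 0.396). Stard4, a cytosolic sterol carrier, differed by 0.99. Scap, the escort of SREBP, and Insig2, the Insig form that SREBP does not induce, were lower in lung lines by -0.32 and -0.26.

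Of the 7 fatty acid genes, 6 were higher in lung lines with a median of 0.61. Scd1 (ENSMUSG00000037071), a stearoyl-CoA desaturase, had 191, 148 and 169 CPM in lung NT libraries, against 171 and 23.6 (42-2), 23.3 (G45-2), 163 (6-3) and 35.4 CPM (13-2) in liver NT libraries. The first 42-2 library and 6-3 lay at the lung level and the other 3 liver libraries were below it, and the difference of line means was 1.61 ± 0.69 (SE, limma adjusted p = 0.382). Scd2 (ENSMUSG00000025203), its close paralog, had 1417, 1114 and 1142 CPM in lung and 436 and 394 (42-2), 436 (G45-2), 1195 (6-3) and 835 CPM (13-2) in liver NT libraries, a difference of 0.88 ± 0.48 (adjusted p = 0.468) with 6-3 among the lung values. Fasn (ENSMUSG00000025153), the fatty acid synthase, had 370.0, 536 and 337 CPM in lung and 105 and 453 (42-2), 264 (G45-2), 340.5 (6-3) and 394 CPM (13-2) in liver NT libraries, which overlap widely, with a difference of 0.38 ± 0.30 (adjusted p = 0.602). Acss2, which makes acetyl-CoA from acetate, was the member lower in lung, at -0.63.

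**Figure D2:**
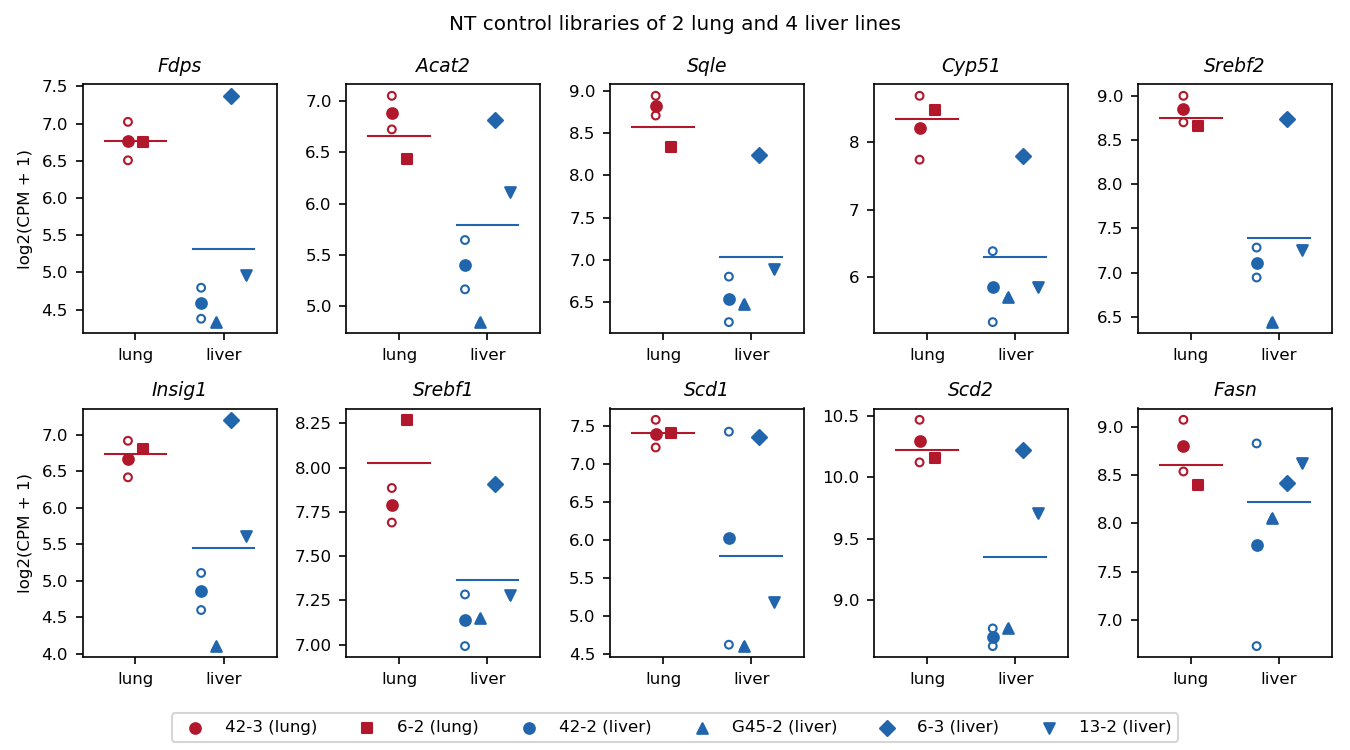
NT libraries of the 10 genes given by library, as log2(CPM + 1) on axes that differ between panels, with lung left and liver right. Filled symbols are line means, open circles are the 2 libraries of lines 42-3 and 42-2, and bars are the mean of lines. For Sqle, Cyp51 and Scd1 both lung line means lie above all 4 liver line means, and for Fdps and Insig1 the liver line 6-3 is the highest.

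For 6 members both lung line means lay above all 4 liver line means (Sqle, Cyp51, Hsd17b7, Dhcr7, Acaca and Scd1), against 11.8% of all genes, and for 0 members both lay below, against 14.1%. Line 6-3 was the highest of the 4 liver lines for 24 of 30 members, against 21.2% of all genes, and was above both lung lines for 12, against 34.6%. Without line 6-3, limma called 5 members higher in lung lines, against 1.29% of all genes (167 genes), and 18 were at an unadjusted p under 0.05, against 17.4%. These were Cyp51 (2.55 ± 0.23 SE, adjusted p = 0.0178), Fdps (2.13, adjusted p = 0.0319), Sqle (1.94, adjusted p = 0.0319), Sc4mol (1.59, adjusted p = 0.0331) and Srebf2 (1.82, adjusted p = 0.0473). The median was then 1.01, and for 24 members both lung lines lay above the 3 remaining liver lines, against 16.2% of all genes. Leaving out 6-3 was 1 of 6 such choices, and the other 5 gave 0 calls. The count of members without overlap was repeated without 6-3 only, the line that these same values set apart.

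Within library code CFa8 (2 lung and 1 liver NT library) the median difference was 1.40, with 26 members higher, and within CFa11 (1 lung and 3 liver libraries) it was 0.71, with 27 higher. With the code as a term the median was 1.04 and 0 members were called. Between the 2 NT libraries of a line, the median absolute difference over the members was 0.33 in 42-3 and 0.51 in 42-2, against 0.37 and 0.54 over all genes. The largest was 2.80, for Scd1 in 42-2.

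Summed epithelial markers were highest in lung and 6-3 NT libraries, while the ranges of the proliferation and fibroblast sums overlapped between lung and liver. Of the epithelial markers, Epcam, Krt7, Cldn4 and Cldn7 singly were highest in the G45-2 NT library. Cdh1 and Krt19 were highest in that of 6-3, and Krt8 and Krt18 in that of 6-2. The summed level of the 8 epithelial markers was 12206, 12694 and 14689.7 CPM in lung NT libraries, against 13422 CPM in 6-3 and 401 to 7672 CPM in the other liver NT libraries, the same line standing with lung as for the sterol genes. The summed level of 10 proliferation genes was 1465 to 2098 CPM in lung and 374 to 1856 CPM in liver NT libraries, with 6-3 at 503 CPM. In the fit on line means 10 of 10 of them were higher in lung lines (median 1.33, 0 called), against 46% of all genes. The 7 fibroblast markers with a row summed to 13.9 to 58.4 CPM in lung and 5.79 to 2917 CPM in liver NT libraries. The part of cell state or proliferation in the sterol gene levels was not tested, and in bulk RNA fewer cells with a high level and a lower level per cell cannot be told apart.

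**Figure D3:**
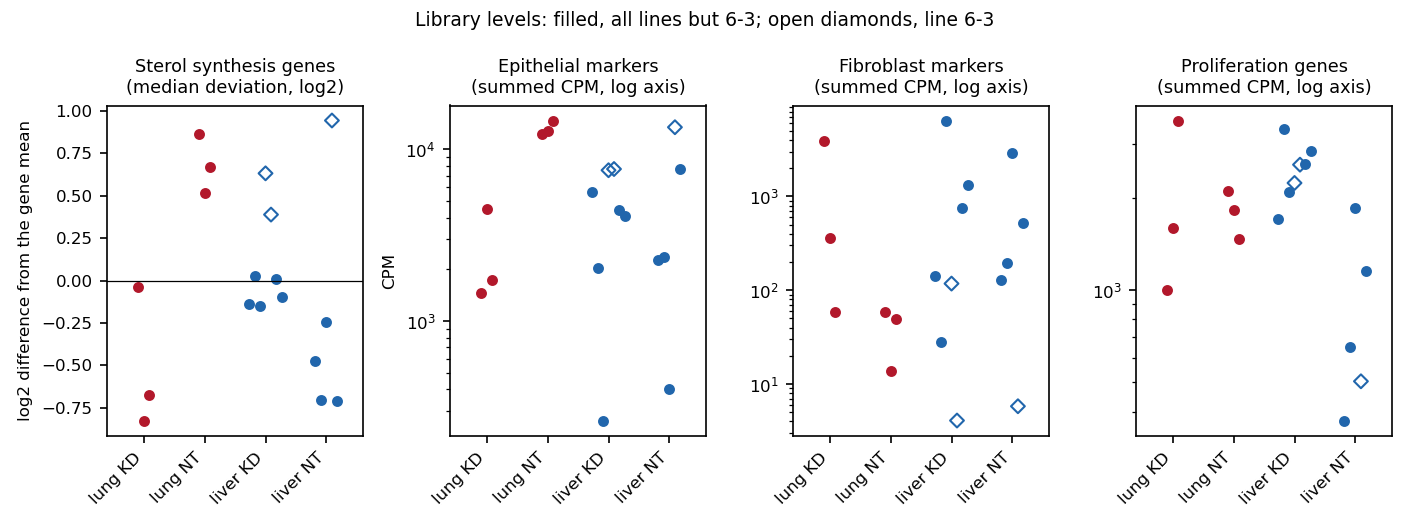
Each point is a library, in lung knockdown (3), lung NT (3), liver knockdown (7) and liver NT (5) columns, with open diamonds for line 6-3. From the left, panels show the median deviation of the 17 sterol synthesis genes from their means (log2), and the summed CPM of epithelial, fibroblast and proliferation genes on log axes. The sterol median was 0.52 to 0.86 in lung NT libraries, 0.94 in 6-3 NT and -0.24 to -0.71 in the other liver NT libraries.

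In the knockdown libraries the order of lung and liver lines was the opposite for the sterol genes, again without a call. Over 6 line means of the 10 knockdown libraries, 23 members were lower in lung lines and 7 higher, where 51.1% of all genes were lower and 48.9% higher, with a median of -0.54 against -0.01 over all genes. limma called 0 members and 0% of all genes, with 4 members at an unadjusted p under 0.05, against 2.2% of all genes (285 genes). edgeR also called 0 members and 0% of all genes, with 2 members at that limit, against 3.53%. These 4 (Sc4mol, Fdps, Mvk and Sqle) were all lower in lung, against 1.04% of all genes that were lower at that limit. All 17 sterol synthesis genes, the mevalonate steps and the steps after squalene together, were lower in lung lines (median -0.60), while 5 of 7 fatty acid genes were higher (median 0.08).

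Fdps had 31.2, 11.1 and 20.8 CPM in lung knockdown libraries (42-3 first, 42-3 second and 6-2), against a lowest of 39.1, a median of 57.0 and a highest of 86.4 CPM in the 7 liver knockdown libraries. The lung values lay below all liver values, with a difference of line means of -1.54 ± 0.31 (SE, limma adjusted p = 1.00). Sqle had 160.5, 118 and 114 CPM in lung, against a lowest of 150.2, a median of 187 and a highest of 305 CPM in liver, and the first 42-3 library lay inside the liver range, with a difference of -0.71 ± 0.29 (adjusted p = 1.00). Sc4mol, the sterol methyl oxidase, had 90.6, 43.8 and 69.0 CPM in lung, below the liver libraries with a lowest of 115, a median of 156 and a highest of 186 CPM.

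Cyp51 had 135, 39.1 and 98.7 CPM in lung and a lowest of 104, a median of 169 and a highest of 832 CPM in liver knockdown libraries, where the 2 libraries of G45-2 were the highest and the groups overlapped. Insig1 had 65.6, 24.1 and 39.8 CPM in lung, and a lowest of 40.3, a median of 82.7 and a highest of 191 CPM in liver, which overlap, with 13-2 the highest. Srebf2 had 312, 168 and 155 CPM in lung and a lowest of 184, a median of 274 and a highest of 394 CPM in liver, which overlap.

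Both lung line means were below all 4 liver line means for 9 members (Mvk, Pmvk, Mvd, Fdps, Fdft1, Sqle, Cyp51, Sc4mol and Insig1), against 4.9% of all genes, and above them for Acss2, against 4.86%. Within library code CFa11 (1 lung and 2 liver knockdown libraries) the median difference was -0.80, with 26 members lower. Within CFa8 (2 lung and 1 liver library) it was 0.04, with 14 lower and 16 higher, so that the order did not hold for the list within that code, while Fdps (-1.28), Sc4mol (-1.20) and Sqle (-0.47) were lower in lung there too. The summed epithelial markers were 1444 to 4492 CPM in lung and 263 to 7664 CPM in liver knockdown libraries.

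Across all lines together, knockdown of Gstt1 gave no member a call. The effect of knockdown against NT, taken within sets and averaged over the hairpins, was called by limma for 0 of 30 members, against 0.0387% of all genes (5 genes). At an unadjusted p under 0.05 there were 0 members, against 17.1% of all genes, and edgeR called 0 members and 0% of all genes, with 1 member at that limit, against 15.1%. The median was -0.09, against -0.03 over all genes, with 11 members higher and 19 lower, where 47% of all genes were higher and 53% lower. The members with the smallest p were Scap (0.41 ± 0.19 SE, limma adjusted p = 0.292) and Mvd, the decarboxylase at the end of the mevalonate steps (-0.80 ± 0.37 SE, adjusted p = 0.295).

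Without the 5 sets whose libraries differ in identity transcripts, the liver sets G45-2, 6-3 and second 42-2 remained. The median was then 0.38 and 25 members were higher in the knockdown, with 0 called and 4 at an unadjusted p under 0.05, against 10.6% of all genes. With the limit for these transcripts at 1 CPM in place of 10 CPM, 6 of 8 sets differ, the second 42-2 set among them. G45-2 and 6-3 alone gave a median of 0.38 with 22 members higher, 0 called and 5 at an unadjusted p under 0.05, against 12% of all genes.

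In the fit over libraries, the effect of knockdown differed between lung and liver sets for Sqle, the 1 member that passed the test. The 3 lung sets come from 2 lines, and no fit on line means was run for this difference. Its p-value thus measures the spread between libraries, not between lines. The interaction of knockdown with site, fitted in limma over 18 libraries with the set as a block, was called for 1 of 30 members, lower in lung, against 0.108% of all genes called lower and 0.186% called in either direction (24 genes). It was negative for 27 of 30 members, where 49.2% of all genes were negative and 50.8% positive, with a median of -1.39 against 0.02 over all genes. At an unadjusted p under 0.05 there were 16 members, all negative, against 9.41% of all genes negative and 17.7% of either sign at that limit. edgeR called 0 members, against 0.0696% of all genes, with 15 at the unadjusted limit, against 15.6%. This comparison uses the same libraries as the comparisons of lines in the NT and in the knockdown libraries, so that the 3 are not independent.

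In the lung sets Sqle had 160.5, 118 and 114 CPM in the knockdown libraries, against 417, 490.2 and 321 CPM in their NT libraries. In the liver sets it had 187 (42-2 first), 176 (42-2 second), 150.2 and 171 (G45-2), 305 and 249 (6-3) and 220.1 CPM (13-2) in the knockdown libraries, against 75.8 and 111 (42-2), 88.4 (G45-2), 300.4 (6-3) and 118 CPM (13-2) in the NT libraries. Knockdown libraries were lower in all 3 lung sets, higher in 4 liver sets and close to the NT library in 6-3.

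On the log2(CPM + 1) scale the knockdown minus NT difference of Sqle was -1.37, -2.04 and -1.49 in the lung sets (42-3 first, 42-3 second and 6-2), a mean of -1.64 ± 0.36 (SD, n = 3). It was 1.29, 0.67, 0.85, -0.12 and 0.89 in the liver sets (42-2 first, 42-2 second, G45-2, 6-3 and 13-2), a mean of 0.72 ± 0.52 (SD, n = 5). The fitted difference between lung and liver was -2.33 ± 0.34 (SE, limma adjusted p = 0.0234). It kept its direction in 17 of 17 alternatives, at -2.60 to -2.19, and its call in 8 of them, with adjusted p of 0.0109 to 0.114. One of these has the line as the block and does not use the division of 42-3 and 42-2 into sets (-2.32, adjusted p = 0.0109). The call was lost without any 1 of the 3 lung sets, without G45-2, 13-2 or the second 42-2 set, without 6-3 and 13-2 together, without the block and in edgeR (adjusted p = 0.0950). All 3 lung sets are among those whose libraries differ in identity transcripts, so the interaction has no value without them.

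Other sterol genes had interactions in the same direction that did not pass. Cyp51 had differences of -1.60, -2.42 and -1.84 in lung sets and 2.08, 0.58, 3.59, -0.09 and 0.87 in liver sets, with an interaction of -3.47 ± 0.75 (SE, limma adjusted p = 0.0869). The 3 lung values lay below all liver values, and G45-2 was the highest. Fdps had -1.50, -3.43 and -2.31 in lung sets and 1.63, 0.53, 1.49, -1.06 and 0.90 in liver sets, with an interaction of -3.10 ± 0.62 (adjusted p = 0.0751), and Sc4mol had an interaction of -2.36 ± 0.53 (adjusted p = 0.0915). Without set 6-3, limma called 3 members (Fdps, Sqle and Sc4mol), against 0.139% of all genes (18 genes), and 16 had an unadjusted p under 0.05, against 14.5%. Leaving out 6-3 was 1 of 8 such choices, and no other gave more than 1 called member. Acat2 had -1.49, -2.46 and -1.18 in lung sets and 0.74, -0.09, 0.85, -0.75 and -1.14 in liver sets, where 3 of 5 liver sets were also negative, and its interaction was -1.66 ± 0.52 (adjusted p = 0.152).

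Among the regulators, Insig1 had -0.86, -1.76 and -1.45 in lung sets and 0.77, 1.32, 1.57, -0.80 and 1.97 in liver sets, with an interaction of -2.27 ± 0.59 (SE, limma adjusted p = 0.115). Srebf2 had -0.41, -1.60 and -1.38 in lung sets and 0.25, 0.89, 1.74, -0.43 and 0.84 in liver sets, with an interaction of -1.81 ± 0.51 (adjusted p = 0.129). In both genes the 6-3 set was negative and the other 4 liver sets positive. Srebf1 had 0.58, -0.82 and -1.86 in lung sets and -0.07, 0.15, 1.28, 0.18 and 0.24 in liver sets, with both signs in lung, and an interaction of -1.12 ± 0.52 (adjusted p = 0.293). Scap was higher in the knockdown in all 3 lung sets, and its interaction was 0.55 ± 0.36 (adjusted p = 0.460).

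The fatty acid genes were less uniform. Scd1 had -3.27, -3.54 and -2.61 in lung sets and -3.76, 1.24, 3.04, 0.61 and -0.62 in liver sets, with an interaction of -3.45 ± 1.28 (SE, limma adjusted p = 0.215). Its liver sets spanned both the lowest and the highest value of all 8 sets. Scd2 had 0.06, -1.34 and -2.22 in lung sets and -0.78, 1.06, 1.87, 0.31 and -0.39 in liver sets, an interaction of -1.66 ± 0.71 (adjusted p = 0.261). Fasn had 0.32, -1.19 and 1.05 in lung sets and 1.95, 0.04, 0.64, 0.76 and -0.08 in liver sets, which overlap, with an interaction of -0.64 ± 0.55 (adjusted p = 0.569). Acss2 had the highest interaction of the list at 0.96 ± 0.64 (adjusted p = 0.462).

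**Figure D4:**
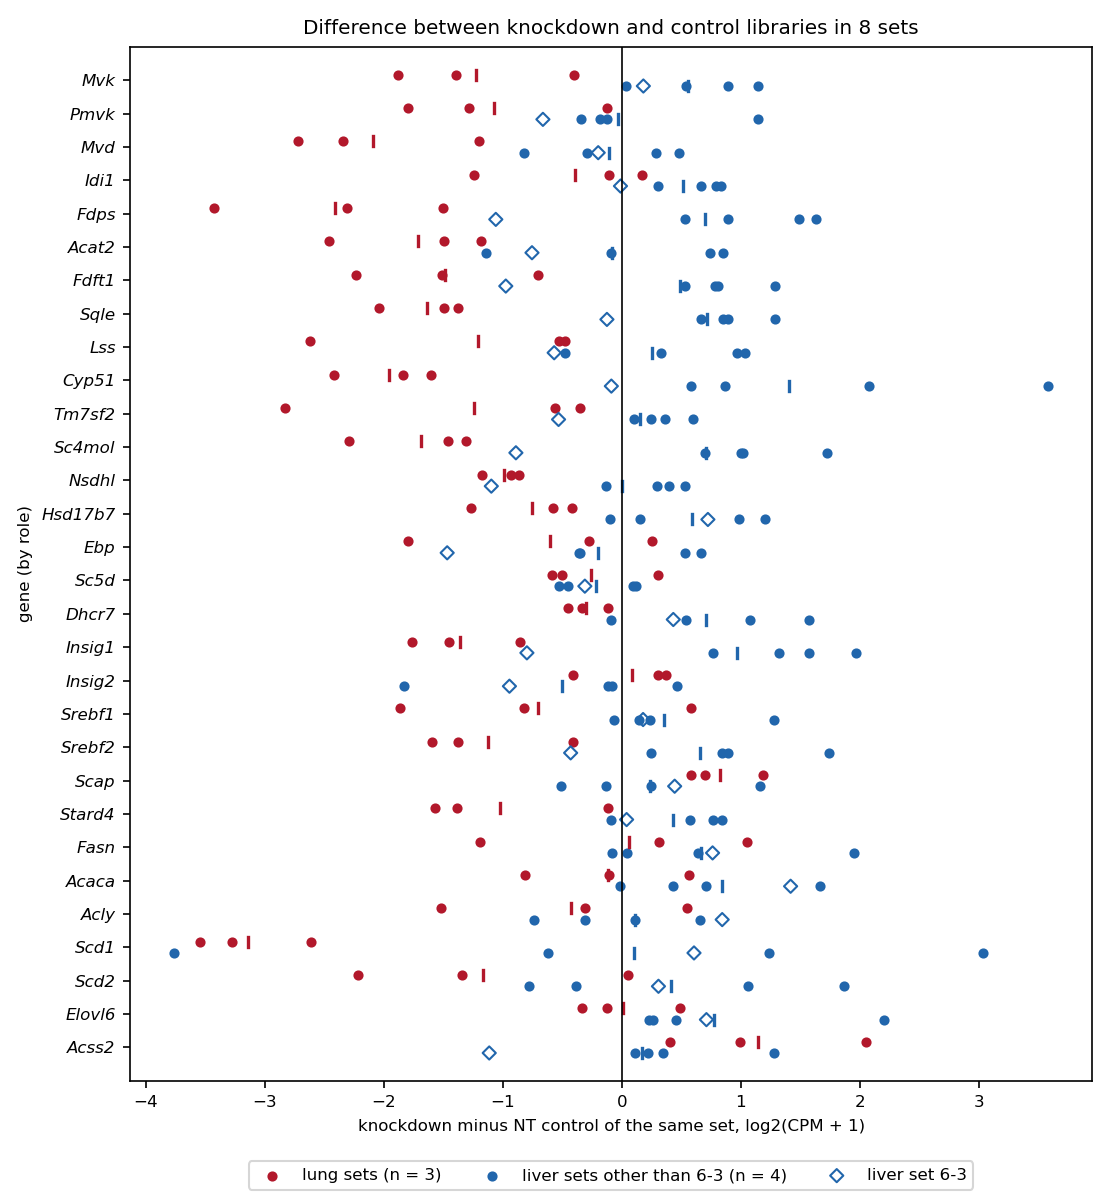
Knockdown minus NT on the log2(CPM + 1) scale for each of 30 genes (down the page, by role) in 3 lung sets (red) and 5 liver sets (blue, with 6-3 as an open diamond); bars are the means. For Sqle the lung sets lie at -1.37 to -2.04 and the liver sets at -0.12 to 1.29, and the 6-3 diamond is left of the other liver points for most sterol genes.

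Taken by set, the median difference over the 30 members was -0.43 in the first 42-3, -1.31 in the second 42-3 and -1.38 in the 6-2 lung set. In the liver sets it was 0.70 in the first and 0.34 in the second 42-2 set, 0.78 in G45-2, -0.16 in 6-3 and 0.25 in 13-2, while the median over all genes stayed between -0.15 and 0.05 in every set. In all 3 lung sets 18 members were lower in the knockdown, against 21.8% of all genes, and in all 5 liver sets 2 members (Mvk and Elovl6) were higher, against 5.76%. Mvk, the mevalonate kinase, met both, against 0.696% of all genes. Leaving out 6-3, 9 members did (Mvk, Fdps, Fdft1, Sqle, Cyp51, Tm7sf2, Sc4mol, Insig1 and Srebf2), against 0.982%. This count was repeated without 6-3 only, the set that these same values set apart, so it is no test of the pattern.

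The fatty acid genes followed the sterol genes in some sets only. In the 6-2 set the median was -1.84 for the mevalonate steps and -1.46 for the steps after squalene, but 0.55 for the fatty acid genes, 5 of 7 of which were higher in the knockdown. In 6-3 the same medians were -0.43, -0.53 and 0.71. In the second 42-3 set all 3 were negative, at -1.93, -1.27 and -1.19.

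Within code CFa8, the sets 42-3 first and 6-2 (lung) had medians of -0.43 and -1.38 and 42-2 first (liver) had 0.70. Within CFa11, the second 42-3 set (lung) had -1.31 and G45-2 (liver) had 0.78, so the opposite signs held within both codes. In the 2 lines with both hairpins, G45-2 had a median of 0.84 with shRNA 1 and 0.74 with shRNA 2, with the same sign for 28 of 30 members, and 6-3 had 0.09 and -0.41, with the same sign for 20. Each pair of hairpins shares an NT library. Gstt1 itself was at or below 0.359 CPM in all 3 lung knockdown libraries, while in liver knockdown libraries it reached 23.9 CPM, and whether the extent of knockdown bears on the lipid genes was not tested.

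Marker genes also differed between the knockdown and NT libraries of a set. The summed epithelial level was 1444, 4492 and 1734 CPM in lung knockdown libraries (42-3 first, 42-3 second and 6-2), against 12206, 12694 and 14689.7 CPM in their NT libraries. In liver sets it was 2031 (42-2 first), 263 (42-2 second), 4399 and 4093 (G45-2), 7541 and 7664 (6-3) and 5602 CPM (13-2) in knockdown libraries, against 2348, 401, 7672, 13422 and 2271 CPM in the NT libraries of these sets. The sum was thus lower in the knockdown in all 3 lung sets and in 4 of 5 liver sets, 13-2 being the exception, and those 4 include the 3 liver sets with the highest member medians.

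The 7 fibroblast markers with a row summed to 3877, 357 and 58.7 CPM in lung knockdown libraries, against 58.4, 13.9 and 49.6 CPM in their NT libraries. In liver sets they summed to 27.8 (42-2 first), 6452 (42-2 second), 761 and 1327 (G45-2), 118 and 4.08 (6-3) and 143 CPM (13-2) in knockdown libraries, against 196, 2917, 516, 5.79 and 128 CPM in the NT libraries of these sets. The sum lay close to that of the NT library in 6-2 and 13-2 and was lower in the first 42-2 set. Over all lines 10 of 10 proliferation genes were higher in the knockdown (median 1.02, 0 called), against 47% of all genes. Of these, 9 were at an unadjusted limma p under 0.05, against 17.1% of all genes. By set, their sum was lower in the knockdown in both 42-3 sets, at 997 and 1590 CPM against 2098 and 1827 CPM. In 6-2 it was 3571 against 1465 CPM, and it was higher in every liver set. Their interaction was negative for 10 of 10 (median -1.81, 0 called), against 49.2% of all genes. The part of these markers in the lipid gene differences was not tested.

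Neighbouring pathways had no called gene in any of the 4 comparisons, where 0% to 0.186% of all genes were called. Of all genes, 46% were higher in lung NT lines and 50.8% had a positive interaction. Of 15 genes of sterol uptake, storage and efflux, 7 were higher in lung NT lines and 8 lower (median -0.03), and 9 had a positive interaction (median 0.12). Npc2, a lysosomal sterol carrier, was at -0.68 between NT lines. Of 9 tested genes of SREBP processing and turnover, 4 were higher in lung NT lines (median -0.09), with Rnf139, a ubiquitin ligase of the endoplasmic reticulum, at 0.73.

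Of 22 genes of fatty acid modification and esterification, 15 were higher in lung NT lines (median 0.28) and 15 had a negative interaction (median -0.18). For this list and the next, the shares of all genes were 46% higher and 49.2% with a negative interaction. Acacb, which makes malonyl-CoA at mitochondria, was at -1.26 and Mcat, of mitochondrial fatty acid synthesis, at 0.75 between NT lines. Of 11 genes of the non-sterol branch that starts from farnesyl diphosphate, 6 were higher (median 0.03) and 7 had a negative interaction (median -0.08), with the prenyltransferase subunit Fnta at -0.57 and Coq2, of ubiquinone synthesis, at 0.65 between NT lines.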

How the data were processed

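The authors deposited 1 table of CPM for 18 libraries. The build named is mm9, per the submitters' processing notes, and the aligner, counter and annotation are not given in the sources at hand. All values were whole multiples of 1 read (100% within 0.01 reads), so the recovered reads were also tested with edgeR 4.0.16 (quasi-likelihood), a choice made after seeing the data. limma 3.58.1 (trend, two-sided) in R 4.3.3 tested log2(CPM + 1) with Benjamini-Hochberg adjustment at 0.05 over all 12931 genes, and Python 3.11.15 made the tables and plots. Differences on this scale understate the change of low genes. Lines were averaged on the log2 scale. Knockdown and NT libraries were paired by the cell line in the labels and, within 42-3 and 42-2, by the library code, whose meaning is not stated. Deviations of the 10 knockdown libraries from their group means correlated with those of their own control at -0.36 to 0.67 (median 0.12), 6 of them above 0.1. Those 6 were all liver libraries, and the lowest was the first 42-2 set, also of liver. The lung libraries were at 0.077 (42-3 first), -0.18 (42-3 second) and -0.32 (6-2). All members were examined, and values by library are given for Srebf1, Srebf2, Insig1, Hmgcs1 (without a row), Sqle, Fasn, Scd1 and Scd2, for members past the threshold, and for the 2 members of each role with the largest difference between NT lines at a mean CPM of at least 5. Two-sided exact tests were used for Gstt1. The members, lists and tests were chosen with earlier results of these data known. The fits were also run on simulated counts without differences between lines or sets. That run does not measure their power or false calls in these data. Alternatives were pseudocounts of 0.5 and 2, other filters, median-ratio rescaling, other blocks, leaving out each line or set, and, added later, the library code as a term, the line as block for the interaction, a limit of 1 CPM for identity transcripts and leaving out sets with unlike codes.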

Additional observations from a re-analysis of the deposited data

Results flagged for a closer look

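In 7 of 60 combinations of gene and group with 4 or 5 libraries, 1 library lay far from the others. Chance gives about 1 in 20 where combinations are independent. Here the genes share the same libraries, and liver NT holds both libraries of line 42-2, so the 7 cannot be set against that rate. Line 6-3 was the highest liver NT library for Idi1 at 3.88 CPM, Fdps at 165 CPM, Fdft1 at 90.6 CPM and Sc4mol at 319.6 CPM. G45-2 was the lowest liver NT library for Sc5d, at 70.2 CPM. Among liver shRNA 1 libraries, 13-2 was the lowest for Lss, at 31.2 CPM, and the first 42-2 set was the lowest for Ebp, at 44.0 CPM.

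The effect of knockdown on Sqle differed between lung and liver sets, with an interaction of -2.33 (limma adjusted p = 0.0234), lower in 3 of 3 lung sets and higher in 4 of 5 liver sets. Mvk was lower in the knockdown in all 3 lung sets and higher in all 5 liver sets, with a lung minus liver difference of the set means of -1.79, and was singled out for that pattern. In the fit over all genes its interaction was -1.80 (limma adjusted p = 0.114), which did not pass.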

How the results depend on the processing

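The number of members called between lung and liver NT lines was 0 in every alternative but 1, with 0 to 5 when 1 line was left out, the 5 coming without 6-3. For the interaction it was 0 to 3 when 1 set was left out, 0 with no replicate block, 0 without sets 6-3 and 13-2 together and 0 in edgeR, against 1 in the fit reported. Knockdown over all lines and lung against liver knockdown libraries gave 0 called members in every alternative run. The replicate block, here the set, changed no other call of a member.

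Counts over all genes moved more. Between NT lines, 4 genes were called, against 18 with no filter, 14 at a CPM of at least 5, 2 with a pseudocount of 0.5, 16 with the first and 0 with the second NT libraries of 42-3 and 42-2, 0 without 42-3, 6-2, 42-2 or 13-2, 8 without G45-2, 167 without 6-3, 78 with a correlation within line, 46 with the library code as a term, and 1 in edgeR. For knockdown 5 genes were called, against 84 with no replicate block, 51 with the line as block, 0 with no filter, in edgeR or without the sets of unlike identity transcripts or library codes, 8 without the first 42-3 set, 3 without G45-2 and 0 without any other set. For the interaction 24 genes were called, against 2 with no replicate block, 25 with the line as block, 9 in edgeR and 0 without sets 6-3 and 13-2. It was 4 without either 42-3 set, 6 without G45-2, 40 without 6-2, 46 without the first 42-2 set and 18 to 21 without 6-3, 13-2 or the second 42-2 set.

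The median over the members kept its sign in all 17 alternatives between NT lines (0.52 to 1.04), in all 13 between knockdown lines (-0.79 to -0.33) and in all 17 of the interaction (-1.74 to -1.19). For knockdown over all lines it ran from -0.34 to 0.38. Only 2 lung lines were available, and at the lowest depth 3 reads of a gene correspond to 0.357 CPM, under the level of every member's lowest library.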

Other observations

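Fatty acid oxidation genes, which break down what the synthesis genes make, were followed as well. Of 15 tested, 14 were lower in lung than in liver NT lines (median -0.30), where 54% of all genes were lower (median -0.05), with 0 called, against 0.0309% of all genes. The interaction of knockdown with site was positive for 12 (median 0.50), where 50.8% of all genes were positive (median 0.02), with 0 called, against 0.186%. The list itself was not tested. Cpt1a, the gate for entry of long-chain fatty acids into mitochondria, was at -1.39 ± 0.50 between NT lines (SE, limma adjusted p = 0.323) and had an interaction of 2.69 ± 0.77 (adjusted p = 0.132). Etfdh, which passes electrons from fatty acid oxidation to ubiquinone, was at -0.37 ± 0.22 between NT lines (adjusted p = 0.484). Both comparisons use the same NT libraries, so they are not independent.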
